A study of Homo sapiens with 5 samples.

Results

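The genes described here encode the nucleosome remodelling and deacetylase complex, NuRD. They are 10 listed genes, CHD3, CHD4, MTA1, MTA2, MTA3, HDAC1, HDAC2, MBD2, MBD3 and GATAD2A, out of 64439 annotated genes. They were taken by name and not by a rule on any measured value, although earlier results of these data were known at that choice. What was measured at each of them is the presence, strength and position of peaks of PHF8, an enzyme that strips methyl groups from histones and docks on methylated histone tails at promoters. A peak was assigned to a gene when it overlapped the 1 kb on either side of any of its annotated transcription start sites (TSSs), which gave the 10 genes 23 of the 21506 peaks of replicate A, 23 of the 20882 of B1 and 21 of the 20120 of B2. Wherever 3 values of the same gene or region are given in a row, they belong to A, B1 and B2 in that order.

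PHF8 chromatin immunoprecipitation was performed with an anti-PHF8 antibody in 3 replicates of the established human melanoma line SKMEL-147, named A, B1 and B2. The 2 input libraries, A and B, had no antibody and enter only through the enrichment that the authors' peak caller computed for each ChIP peak. All samples are thus of the same cell line and of 1 condition, the labels name no guide RNA or drug for them, and nothing says that B1 and B2 came from separate cultures, so spreads between replicates may be technical. The question asked of these data was which genes PHF8 binds in melanoma cells.

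NuRD joins a nucleosome remodeller and histone deacetylases in the same assembly. CHD3 and CHD4 are alternative ATPase subunits that slide nucleosomes, and HDAC1 and HDAC2 remove acetyl groups from histone tails. MTA proteins form the scaffold that holds the deacetylases, MBD2 and MBD3 are mutually exclusive subunits of the methyl-CpG-binding domain family, and GATAD2A and GATAD2B bridge the MBD protein to the remodeller. The complex is best known for turning genes down or keeping them poised, and the promoters described here are those of its own genes, not the sites where it acts.

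Fold enrichment is the number of ChIP fragments at the summit of a peak over the local background, each with 1 added. Its scale differed between replicates. The strongest promoter peak of a gene with a promoter peak in all 3 replicates (a target, 16541 genes) had a median fold enrichment of 32.4, 18.8 and 17.7. Each gene was therefore also given a percentile, its place among these targets in the same replicate. Read totals were not used, so library depth is unknown, but the number of fragments at each summit could be recovered from the deposited values. The weakest called summits carried 8, 8 and 10 fragments in A, B1 and B2. Nothing below that was called, so weaker binding may have been missed.

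All 10 genes were PHF8 promoter targets. Each had a promoter peak in A, in B1 and in B2, against a background of 60.2% of 20162 protein-coding genes with a promoter peak in all 3 replicates. Above a fold enrichment of 10 in every replicate, 9 of the 10 remained and CHD3 dropped out, beside 49.6% of protein-coding genes. Above 20 in every replicate, MTA3, HDAC1, MBD3 and GATAD2A remained, 4 of 10 beside 23.8%. The strongest peak was taken in each replicate separately, for all genes alike. GATAD2A passed through one region in A and another in B1 and B2, and no single region of it was above 20 in all 3 replicates. In strength the genes lay close to the middle of the targets. Their median percentile was 52.6, and that of 12139 protein-coding targets was 53.0. By replicate the median percentile of the 10 genes was 45.9, 56.8 and 51.2.

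**Figure D1:**
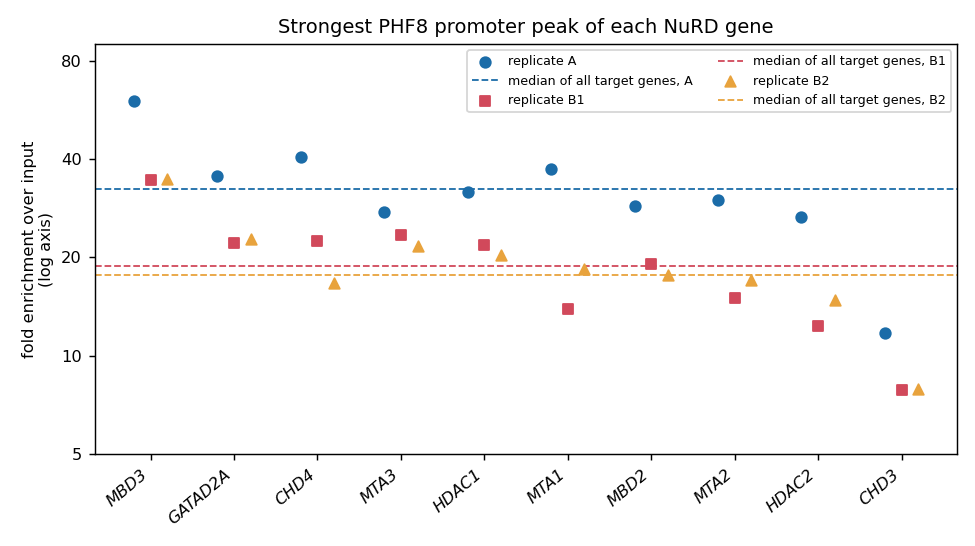
Fold enrichment over input (log axis) of the strongest PHF8 promoter peak of each of the 10 NuRD genes, with 1 point per replicate and dashed lines at the median of all target genes in that replicate. MBD3 lies above the median line of every replicate, at 60.4, 34.4 and 34.8, and CHD3 lies below it, at 11.7, 7.84 and 7.89.

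The remodellers CHD3 and CHD4 differed more than any other pair of paralogues tested when each gene was taken at its strongest promoter peak, and by little at the outermost start of each gene. CHD3 (ENSG00000170004, chromosome 17, plus strand) had a fold enrichment of 11.7, 7.84 and 7.89, carried by 42, 22 and 23 summit fragments. CHD4 (ENSG00000111642, chromosome 12, minus strand) had 40.5, 22.5 and 16.7, carried by 103, 79 and 75 fragments. CHD3 was below CHD4 in every replicate, and the 95% exact Poisson intervals of their fragments, which cover counting error only, did not overlap in any of the 3. The log2 difference of CHD3 minus CHD4 was -1.79, -1.52 and -1.08, with a mean of -1.47 ± 0.36 (SD, n = 3), a 2.76-fold higher value for CHD4. The exact sign-flip permutation test gave a two-sided p of 0.25, the lowest value possible with 3 replicates, and 0.5 after Benjamini-Hochberg adjustment over 6 pairs. With the 5′ end of each gene record as the sole TSS, CHD3 had 10.1, 7.84 and 7.89 and CHD4 had 12.5, 9.55 and 7.89, and the mean log2 difference was -0.19 ± 0.17 (SD, n = 3). CHD4 was then at a percentile of 11.0 ± 3.21 and CHD3 at 8.27 ± 2.81. The gap between them thus rests on the main CHD4 promoter further downstream. With the canonical start of each gene as the sole TSS, the mean log2 difference was -1.53 ± 0.34 (SD, n = 3).

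CHD3 was the weakest of the 10 in each replicate, at a percentile of 8.98 ± 1.63 (SD, n = 3). Its peaks sat away from the start of the canonical transcript at position 7792107. A region at chr17:7788113-7789310, bound in all 3 replicates, held its first annotated start and the summit of the strongest peak in B1 and B2. A second shared region at chr17:7791081-7791393 had its summit in A at -853 bp from the canonical start, negative values being upstream, and held the strongest peak there. The 2 regions were close in strength, with fold enrichment of 10.1, 7.84 and 7.89 in the first and 11.7, 7.16 and 7.56 in the second. The first one is shared with NAA38, a protein-coding gene that starts 413 bp away on the opposite strand and encodes an auxiliary subunit of an N-terminal acetyltransferase, so that its signal cannot be assigned to CHD3 alone.

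The sequence under these 2 regions differed in its content of CpG dinucleotides, and both are shown with that of CHD4 for this reason. Each stretch is given 5′ to 3′ on the strand of its gene (hg19), with CpG in capitals, and is centred on the median summit of the 3 replicates. The first CHD3 stretch, chr17:7788199-7788349, runs into the coding part of exon 1, the second, chr17:7791179-7791329, is intronic, and that of CHD4, chr12:6716383-6716465, is intronic too. The first CHD3 region had its summits at -3879, -3304 and -3833 bp from the canonical start. The summit of B1 there falls outside the printed stretch.
CHD3, first start: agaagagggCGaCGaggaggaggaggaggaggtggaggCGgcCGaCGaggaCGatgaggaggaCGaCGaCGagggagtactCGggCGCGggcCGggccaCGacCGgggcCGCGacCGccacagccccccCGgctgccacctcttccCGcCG
CHD3, upstream of the canonical start: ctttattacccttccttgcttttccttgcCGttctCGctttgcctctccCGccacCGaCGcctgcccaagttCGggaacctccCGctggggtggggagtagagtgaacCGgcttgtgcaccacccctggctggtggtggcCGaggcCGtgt
CHD4: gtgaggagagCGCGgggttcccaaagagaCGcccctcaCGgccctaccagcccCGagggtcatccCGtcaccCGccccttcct
There were 21 CpG in the first CHD3 stretch and 10 in the second, both of 151 bases, and 7 in the 83 bases of CHD4. Over 250 bp on either side of the summit, the first CHD3 region had a GC content of 76.2% and a CpG ratio, the count observed over the count its C and G content predicts, of 0.882. The second had 64.9% and 0.555, and the CHD4 summit had 71.7% and 0.736.

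CHD4 ranked at a percentile of 59.9 ± 12.9, and its replicates spread widely. It was at percentile 69.4, 65.1 and 45.3. The local background at its summit was 1.57, 2.55 and 3.55 fragments, against genome-wide backgrounds of 1.567, 1.932 and 2.044. The background thus stood furthest above the genome-wide level where the fold enrichment was lowest, and its part in the spread was not tested. The main region, chr12:6715396-6716618, had its summit 121, 105 and 121 bp downstream of the canonical start. A further gene model on the same strand, ENSG00000285238, starts 1 bp away and shares this peak. Upstream starts of CHD4 carried 2 weaker regions present in all 3 replicates. The one at chr12:6723205-6723617 had a fold enrichment of 12.5, 9.55 and 7.89, and the one at chr12:6722444-6722733 had 5.84, 5.46 and 3.27. Neither had the CpG content of an island, with CpG ratios of 0.317 and 0.24.

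The deacetylases HDAC1 and HDAC2 stood closer together. HDAC1 (ENSG00000116478, chromosome 1, plus strand) had a fold enrichment of 31.6, 21.8 and 20.4, at a percentile of 57.0 ± 7.81. HDAC2 (ENSG00000196591, chromosome 6, minus strand) had 26.5, 12.3 and 14.8, at a percentile of 32.0 ± 7.22. HDAC1 was the higher in 3 of 3 replicates, by a mean log2 difference of 0.52 ± 0.29 (SD, n = 3), or 1.43-fold. The intervals of their fragments (94, 63 and 61 for HDAC1, 67, 35 and 44 for HDAC2) overlapped in every replicate, and the exact sign-flip permutation p was 0.25, adjusted 0.5.

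HDAC1 was bound at 1 region, chr1:32757228-32758101, with its summit in an intron 145, 194 and 169 bp downstream of the canonical start. HDAC2 was bound at 2 regions separated by a narrow gap. The stronger, chr6:114291504-114292477, had its summit in the UTR of exon 1, 139, 84 and 128 bp downstream of the canonical start. The weaker, chr6:114292570-114292959, had its summit in A at -447 bp, with a fold enrichment of 16.4, 10.9 and 11.5. HDAC2-AS2, a long noncoding RNA gene on the opposite strand, starts 260 bp from HDAC2 and shares these peaks. HDAC2 was not a target when the outermost start of the gene was taken as its sole TSS, because that start lies far upstream of its peaks.

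The 3 scaffold genes of the MTA family overlapped in strength. MTA1 (ENSG00000182979, chromosome 14, plus strand) had a fold enrichment of 37.2, 13.9 and 18.4. MTA2 (ENSG00000149480, chromosome 11, minus strand) had 29.9, 15.0 and 17.1, and MTA3 (ENSG00000057935, chromosome 2, plus strand) had 27.6, 23.5 and 21.7. Their order changed with the replicate. MTA1 was the highest of the 3 in A and the lowest in B1, and MTA3 was the highest in B1 and B2. The log2 difference was 0.10 ± 0.22 for MTA1 minus MTA2, -0.19 ± 0.60 for MTA1 minus MTA3 and -0.29 ± 0.38 for MTA2 minus MTA3 (SD, n = 3), all within the spread between replicates. The exact sign-flip permutation p was 0.75, 0.75 and 0.5, each 0.75 after adjustment, and no pair had separate fragment intervals in any replicate.

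MTA1 had one of the widest spreads of percentile, at 61.9, 30.2 and 52.5. Its fragments numbered 111, 60 and 55, and its local background was 2.01, 3.4 and 2.04. B1 thus held more fragments than B2 over a higher background and had the lower fold enrichment. MTA3 had the opposite order, with percentiles of 37.8, 68.7 and 66.3.

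The MTA genes also differed in where the summit lay. At MTA1 it fell outside the gene, at -179, -183 and -144 bp from the nearest start. MTA1-DT, a long noncoding RNA gene on the opposite strand, starts 81 bp from MTA1 and shares this peak. The signal therefore cannot be assigned to MTA1 alone. At MTA3 the summit fell in an intron, 104, 114 and 115 bp downstream of the nearest start. At MTA2 it fell in the UTR of exon 1, 324, 270 and 307 bp downstream of the canonical start and at -54, -108 and -71 bp from a later one. The stretches around the median summits of MTA1 (chr14:105885903-105886053) and MTA3 (chr2:42795920-42796070) are shown to compare an upstream with a downstream summit, on the strand of the gene with CpG in capitals.
MTA1: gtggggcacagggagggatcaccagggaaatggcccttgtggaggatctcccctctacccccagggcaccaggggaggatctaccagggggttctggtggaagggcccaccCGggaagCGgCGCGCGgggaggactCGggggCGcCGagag
MTA3: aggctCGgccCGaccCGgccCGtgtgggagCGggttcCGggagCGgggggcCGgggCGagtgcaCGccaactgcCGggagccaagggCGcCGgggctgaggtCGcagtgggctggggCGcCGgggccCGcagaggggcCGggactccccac
The 151 bases at MTA1 held 8 CpG, all in the part nearer the gene, and those at MTA3 held 18. MTA3 also has an annotated start about 74 kb upstream, beside KCNG3, where a peak at chr2:42720908-42721066 was present in A alone and another at chr2:42721169-42721618 in A and B1. Their fold enrichment was at most 6.76, so the binding shared by all replicates was at the main promoter, chr2:42795482-42796593.

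MBD3 was the most strongly bound of the 10 genes in every replicate. MBD3 (ENSG00000071655, chromosome 19, minus strand) had a fold enrichment of 60.4, 34.4 and 34.8, with 154, 100 and 105 summit fragments, at a percentile of 95.8 ± 1.45 (SD, n = 3). MBD2 (ENSG00000134046, chromosome 18, minus strand) had 28.8, 19.1 and 17.7, with 73, 55 and 53 fragments, at a percentile of 47.4 ± 5.61. MBD2 was lower in 3 of 3 replicates with separate fragment intervals in each, by log2 differences of -1.07, -0.85 and -0.97. The mean of -0.96 ± 0.11 (SD, n = 3) makes MBD3 1.95-fold higher, and the exact sign-flip permutation p was again the smallest possible, 0.25, adjusted 0.5.

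The MBD3 peak was also wide. The region bound in all replicates, chr19:1591535-1593456, spanned 1922 bp, the widest shared region of the 10 genes, and covered the canonical start at 1592864. Its summit was nevertheless 658, 663 and 657 bp downstream of that start, in an intron of the canonical transcript, and 152, 157 and 151 bp downstream of an alternative start, in the UTR of that transcript's exon 1. The position was thus nearly the same in every replicate. At MBD2 the summit fell in the coding part of exon 1, 183, 195 and 195 bp downstream of the canonical start, in the region chr18:51750187-51751472. The summits of the weaker and the stronger MBD promoter are shown on the gene's strand with CpG in capitals, for MBD2 at chr18:51750769-51750919 and for MBD3, kept short because it lies in a UTR, at chr19:1592192-1592220.
MBD2: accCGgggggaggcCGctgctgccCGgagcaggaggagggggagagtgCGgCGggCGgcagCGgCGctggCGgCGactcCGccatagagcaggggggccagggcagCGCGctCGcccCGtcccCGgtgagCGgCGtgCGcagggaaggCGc
MBD3: aggggtggagggtgggctgtccctttggt
The 151 bases at MBD2 held 20 CpG. The 29 bases at the MBD3 summit held 0, although 250 bp on either side of it had a CpG ratio of 0.936.

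GATAD2A, which links the MBD subunit to the remodeller, was the second in rank at a percentile of 63.5 ± 6.49. GATAD2A (ENSG00000167491, chromosome 19, plus strand) had a fold enrichment of 35.5, 22.1 and 22.8 and was bound at 3 separate regions in all replicates. The first pair lies at the upstream end of the gene, at chr19:19495768-19496334 and chr19:19496609-19497204, and the remaining one, chr19:19515987-19517239, lies at the canonical start. In fold enrichment the 3 regions gave 35.5, 20.3 and 16.8, then 18.4, 22.1 and 22.8, then 29.6, 17.6 and 13.6. The strongest peak was thus in the first region in A and in the second in B1 and B2. In A the second region held more fragments than the first, 116 against 90, over a local background of 5.36 against 1.57. Taken at the canonical start alone, GATAD2A ranked at a percentile of 40.1.

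**Figure D2:**
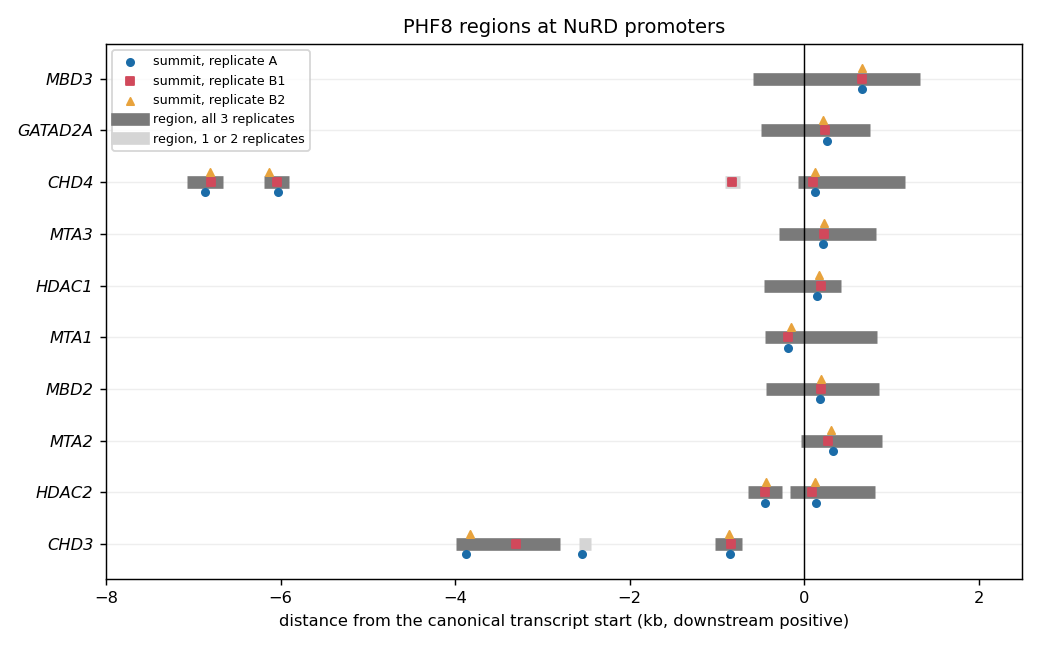
PHF8 regions at the promoters of the 10 NuRD genes, drawn by their distance in kb from the canonical transcript start (positive values are downstream in the sense of transcription), with a dark bar for a region found in all 3 replicates, a light bar for one found in fewer, and a mark for each replicate's summit. The upstream regions of GATAD2A and MTA3 lie beyond the left edge and are not drawn. CHD3 has its summits nearest to the canonical start at -853, -841 and -864 bp, and the MBD3 summits fall together at 657 to 663 bp downstream.

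Several separate regions were found at 4 of the 10 genes, CHD3, CHD4, HDAC2 and GATAD2A, counting those with a peak in all 3 replicates. They were counted per gene over all its annotated starts, so regions of the same gene can lie at different promoters. The share among 12139 protein-coding targets was 29.7%. No gene had a peak in its body outside the TSS windows in any replicate. The windows surround from 5 annotated starts at MBD2 to 53 at CHD4, and the share among all targets was not computed. The summit of the strongest peak lay downstream of the nearest start in all 3 replicates for 7 genes, upstream for MTA1 and MTA2, and on either side according to the replicate for GATAD2A. The median of the distances was 93.2 bp downstream, and the replicate medians had an SD of 4.25 bp. Summit positions were not computed over all targets, so they cannot be called particular to these genes.

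Ordered by mean percentile, the genes ran from MBD3 through GATAD2A, CHD4, MTA3, HDAC1, MTA1, MBD2, MTA2 and HDAC2 to CHD3. The ends of this order stood apart. MBD3 exceeded GATAD2A by 32.2 ± 7.12 percentile points (SD, n = 3), and HDAC2 exceeded CHD3 by 23.0 ± 7.48, in 3 of 3 replicates each and with ranges that did not overlap. Among the 8 genes between them, the ranges of all neighbours in this order overlapped, and those of GATAD2A and CHD4, for example, differed by 3.63 ± 19.2 points. Some genes further apart had separate ranges, in 8 of the 28 pairs. This is a description that leaves out the pairing of genes within a replicate, and it was not tested. HDAC2 lay below GATAD2A, CHD4, MTA3, HDAC1 and MBD2, GATAD2A lay above MBD2 and MTA2 as well, and HDAC1 lay above MTA2. The ranges of the neighbours MTA2 and HDAC2 overlapped, but within each replicate MTA2 was the higher, by 9.99 ± 1.53 points, a difference larger than its spread. HDAC1 likewise exceeded MBD2 in 3 of 3 replicates despite overlapping ranges, by 9.6 ± 2.22 points. The same held for GATAD2A over HDAC1, by 6.53 ± 5.0, and for MTA1 over HDAC2, by 16.2 ± 10.2.

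Of the further subunits of the complex, all but CHD5 were bound in every replicate. GATAD2B, the paralogue of GATAD2A, had a fold enrichment of 35.8, 16.3 and 13.8. The histone-binding subunits RBBP4 and RBBP7 had 32.3, 25.2 and 17.1, and 28.1, 15.3 and 16.8. CDK2AP1, a small subunit, had 23.8, 15.0 and 15.8. These 4 of 5 genes were targets, at mean percentiles from 35.0 for CDK2AP1 to 57.2 for RBBP4, within the range of the 10 listed genes. CHD5, the remodeller paralogue known from the nervous system, had no promoter peak in any replicate. Its canonical promoter had a GC content of 76.0% and a CpG ratio of 0.911, so that it was an unbound CpG-rich promoter. With ZBTB8OS, a gene on the opposite strand 239 bp away, RBBP4 shares its strongest peak, and GATAD2B shares its own with a long noncoding RNA gene, ENSG00000284738, 15 bp away.

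**Figure D3:**
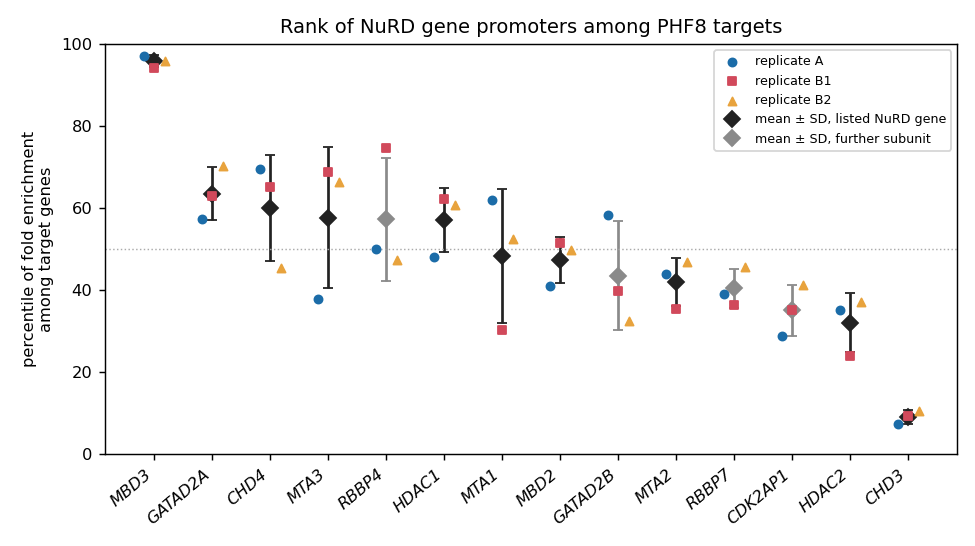
Percentile of fold enrichment among target genes for the 10 listed NuRD genes and the 4 bound further subunits, with 1 coloured point per replicate and the mean ± SD over the 3 replicates as a diamond with bars. MBD3 at 95.8 and CHD3 at 8.98 stand apart from the rest, whose bars overlap with those of their neighbours.

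Related gene lists placed these values in context. Of the genes of the SIN3 complex, the other large assembly built on HDAC1 and HDAC2, 13 of 13 were targets, with a median percentile of 72.8 and the highest value, 99.1, for BRMS1L, which encodes a SIN3-associated subunit. Of the CoREST complex, which pairs the same deacetylases with the demethylase KDM1A, 6 of 7 were targets with a median of 58.7. KDM1A itself was the highest at 80.3, and RCOR2 was not bound. Among zinc finger and adaptor proteins that bring NuRD to chromatin, 11 of 15 were targets with a lower median of 23.0, the highest being ZNF592 at 93.9. The 4 without a target promoter were SALL2, SALL3, SALL4 and IKZF1.

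The other genes of the CHD, HDAC and MBD families on the lists were all bound. The other CHD remodellers, 6 of 6, had a median percentile of 54.4, led by CHD1 at 97.2, and the other HDAC genes, 9 of 9, had a median of 38.9, led by HDAC3 at 99.4. The other genes of the MBD family, 5 of 5, had a median of 77.9, led by MBD1 at 91.4. These counts stand beside the 60.2% of protein-coding genes that were targets, and the lists were not tested against each other.

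**Figure D4:**
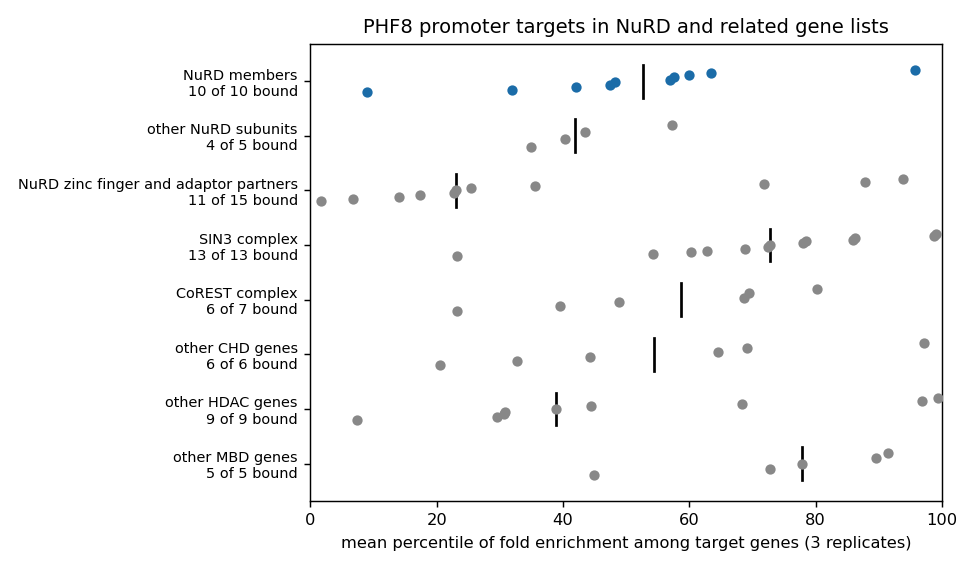
Mean percentile of fold enrichment over 3 replicates for the bound genes of each list, with 1 point per gene and a vertical bar at the median of the list. The listed NuRD genes have their median at 52.6, the SIN3 complex at 72.8 and the NuRD partner proteins at 23.0.

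Most of these promoters were rich in CpG, as were most promoters of protein-coding genes. Within 250 bp of the canonical start, 9 of the 10 genes were CpG-island-like, with a GC content of at least 50% and a CpG ratio of at least 0.6, as were 67.8% of 19862 protein-coding genes. All 9 were targets, and the closer background is therefore the 81.2% of 13463 CpG-island-like protein-coding promoters that were targets, against 18.5% of 6399 others. The exception within 250 bp was CHD3, with a GC content of 52.7% and a CpG ratio of 0.378 at its canonical start. The highest ratios were those of GATAD2A at 1.02 and MBD3 at 0.981. Of the 16 regions bound in all replicates, 13 were CpG-island-like around the summit, and the others were the second region of CHD3 and the pair of upstream regions of CHD4. The shares above are for canonical starts. No share was computed around the summits of all shared regions, so the count of 13 has no background beside it.

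**Figure D5:**
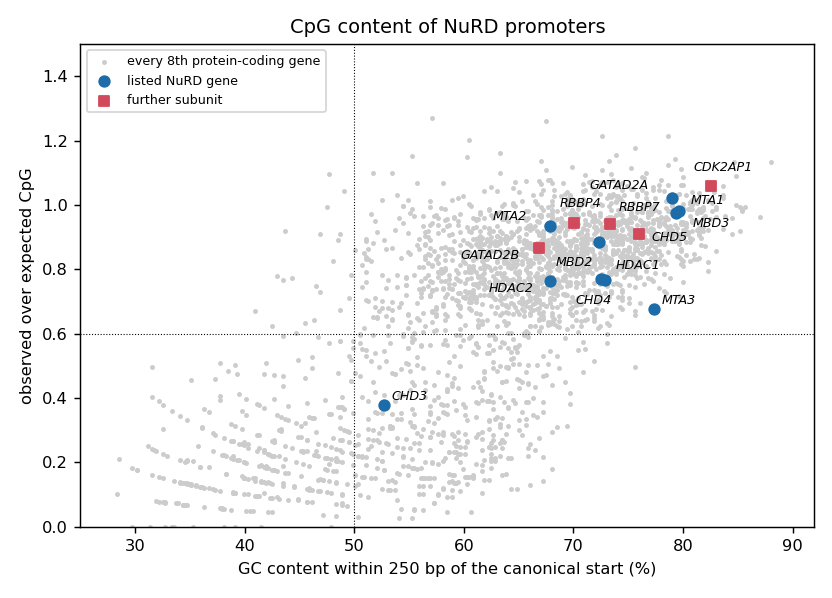
GC content in percent and observed over expected CpG within 250 bp of the canonical start for the 10 listed NuRD genes, the 5 further subunits and, in grey, every 8th protein-coding gene; dotted lines mark 50% and 0.6. CHD3 lies alone among the NuRD genes below the line at 0.6.

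Short sequence motifs were counted on both strands in the 301 bp around the summit of the strongest peak in A, beside 18571 promoter peaks of that replicate. The GC box GGGCGG was present at 7 of 10 genes (CHD4, MTA1, MTA3, HDAC1, MBD2, MBD3 and GATAD2A) and in 60.0% of all promoter peaks. The stretches of CHD4 and MBD2 printed above contain it. AAGATGG, the core of the YY1 motif, was present at HDAC1 alone, 1 of 10 genes beside 6.2% of all promoter peaks. None of the 10 windows held CCGGAAG (9.07% of all), GCATGCGC (1.71%), CACGTG (5.82%), CCAAT (17.3%), TGACGTCA (0.587%) or TATAAA (3.65%).

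The labelled cell type was looked at through the promoters of melanocyte genes, although a PHF8 peak is not a measure of expression. SOX10, MITF, PAX3 and PMEL, 4 of 8 marker genes, were targets, and MLANA, TYR, DCT and TYRP1 were not. Of 4 epithelial keratin genes, KRT8 and KRT18 were targets through the same peak, and KRT5 and KRT14 were not. These peaks do not settle the cell type.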

How the data were processed

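PHF8 ChIP-seq of SKMEL-147 cells was represented by 3 deposited peak lists, and the 2 input libraries enter only as the background of the peak caller. The authors aligned reads to hg19 with Bowtie2 at default settings and ran MACS in narrow mode on each replicate against input, without pooling. The submitters' processing notes also name bcl2fastq and Picard. The fold enrichment deposited by the authors is a linear ratio, the deposited p-value and q-value are on a −log10 scale, the deposited score restates the q-value and was not used, and summits are deposited as offsets. The study's cutoffs, read as a ratio above 1.5 and q below 0.05, removed no peak.

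TSSs were the starts of all transcripts of GENCODE release 44 lifted to GRCh37, which is hg19, and 0 peaks exceeded the length of their chromosome. A peak counted where it overlapped a window of 1 kb on either side by at least 1 bp. Where a gene had several peaks, the one with the highest fold enrichment was used. Fragments at a summit were solved from fold enrichment and p-value under a Poisson law, which gave whole numbers for 100% of peaks within a tolerance of 0.001, and the solver was tested on simulated data. Fragments are not corrected for amplification, so their 95% intervals cover counting error only. Paralogues were compared by a two-sided exact sign-flip permutation test over replicates.

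The named genes were the 10 members, 5 further subunits, genes with a start within 1 kb of a peak of theirs, and of each comparison list the unbound genes and the highest. The members, lists and motifs were chosen with earlier results of these data known. Alternatives changed the TSS window, the start used, the cutoffs, the ranking, the replicates and the window and thresholds of CpG content. Python 3.11.15, pandas 2.3.3, numpy 2.4.6, scipy 1.17.1, pyfaidx 0.9.0.4, samtools 1.23.1 and matplotlib 3.10.9 were used.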

Additional observations from a re-analysis of the deposited data

How the results depend on the processing

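All 10 genes remained targets with TSS windows of 500 bp or 2 kb, canonical starts, summits inside the window, a fold enrichment above 4, a q-value below 0.001 and without any replicate. With the 5′ end of the gene record alone, 8 were targets, without MTA3 and HDAC2, and CHD4 moved from a percentile of 59.9 to 11.0. CHD3 minus CHD4 was then -0.19 on the log2 scale in place of -1.47, a setting added for the pairs after seeing the data. Pairs with MTA3 or HDAC2 gave no value there. Above a fold enrichment of 20, 4 were targets, beside 23.8% of protein-coding genes, and 0 of the further subunits. No such share was computed for the alternatives that left 10 or 8 targets, so those counts have no background beside them. The median percentile was 46.3 above a fold enrichment of 10 and 14.8 above 20, where the reference targets are the stronger ones by construction, and 73.2 when ranked among all peaks, which include weak peaks away from promoters. It ran from 50.4 to 53.6 when a replicate was left out. The median summit distance was 180 bp from the canonical start. Over 500 bp on either side of that start, 8 of the 10 genes were CpG-island-like, beside 65.1% of protein-coding genes. With a GC share of at least 0.55 and a CpG ratio of at least 0.65, 9 were, beside 62.8%. MTA1 minus MTA2 ran from -0.0048 to 0.21 on the log2 scale when a replicate was left out, being negative without A, and MTA1 minus MTA3 from -0.50 to 0.10, being positive without B1. With recovered fragments MTA1 minus MTA3 was 0.05. The cause of these reversals was not tested. The other 4 pairs kept their direction in the alternatives that gave a value. With 3 replicates the exact sign-flip test cannot pass 0.05, whatever the setting. The SD of a gene's percentile had a median of 6.86 points over the 10 genes by fold enrichment, 5.74 by fragments and 5.99 by q-value. The paralogue tests compared genes within each replicate, and replicate names paired no groups, since the ChIP replicates form 1 group and no peak list of the inputs was used here. No summit was called below 8, 8 and 10 fragments in A, B1 and B2, so weaker binding may have been missed.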
